A study of Mus musculus with 9 samples.

Results

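The interferon-induced transmembrane (Ifitm) gene family was described across 9 RNA-seq libraries of sorted mouse fetal liver cells (strain C57BL/6, embryonic day 14.5, 100 cells per library). Its members were taken by symbol from the deposited tables. They are Ifitm1, Ifitm2, Ifitm3 and Ifitm6, 4 of 55488 gene rows. Each of 3 groups held 3 libraries. Evi1 HSC cells came from Tie2-Cre::ROSA-Evi1 embryos, in which the Tie2 promoter drives Cre recombinase in endothelial and blood cells and so switches on the transcription factor Evi1. They were sorted as GFP+, CD150+, CD48-, c-Kit+, Sca-1+ and Lin-, a haematopoietic stem cell (HSC) gate. WT HSC cells passed the same gate without the GFP criterion and came from ROSA-Evi1 embryos with no Cre. WT KL cells, committed progenitors sorted as c-Kit+, Sca-1- and Lin-, also came from ROSA-Evi1 embryos, so every group carried the ROSA-Evi1 allele. No label says whether the libraries of a group came from separate embryos, so a p-value here reflects the spread among the libraries at hand, which may be technical.

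Ifitm proteins are small membrane proteins with a CD225 domain that hinder the fusion of enveloped viruses with cell membranes. Most cells make them after an interferon signal, while stem cells of several tissues express some of them without one. In the mouse, Ifitm3 and Ifitm1 are also known from primordial germ cells, where Ifitm3 was named fragilis.

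Mecom, the gene of Evi1, checked the labels. Levels are in TPM, a share of all transcripts scaled by gene length. Evi1 HSC libraries ranged from 176 to 209.7 TPM of Mecom, WT HSC replicates 1 and 2 from 114 to 161 TPM, and WT KL replicates 2 and 3 from 0.0107 to 0.325 TPM. At 0.0167 TPM for the one labelled WT HSC replicate 3 and 90.8 TPM for the one labelled WT KL replicate 1, a pair of libraries went against their labels. The gate gene Ly6a (Sca-1) did likewise, being listed at 0 for the first of them and reaching 19.7 TPM for the second. Summed over 8 stem cell markers, their levels came to 7.58 TPM and 632 TPM. Groups were kept as labelled in the fit over 9 libraries. Each result is also given over 7 libraries, without these 2, which leaves 2 libraries in each WT group. Since these were left out for their expression, p-values over 7 libraries depend on that choice.

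In the mouse genome (GRCm38) the members lie in 1 cluster on chromosome 7, which with Ifitm5 spans 69.0 kb from 140948958 to 141017924. Ifitm2 lies from 140954837 to 140955987, Ifitm3 from 141009586 to 141010770 and Ifitm6 from 141015699 to 141017924, all on the minus strand. Ifitm1 lies from 140967221 to 140969825 on the plus strand. Their promoters are shown because 3 of the members were high in the same libraries, yet by very different amounts. The 250 bases before the RefSeq start of each gene (RefSeq, GRCm38.p6) follow, 5′ to 3′ on the gene's strand. They are chr7:140967826-140968075 (+) for Ifitm1, chr7:140955962-140956211 (-) for Ifitm2, chr7:141010745-141010994 (-) for Ifitm3 and chr7:141016893-141017142 (-) for Ifitm6. Capitals mark matches to the motifs described next.
Ifitm1: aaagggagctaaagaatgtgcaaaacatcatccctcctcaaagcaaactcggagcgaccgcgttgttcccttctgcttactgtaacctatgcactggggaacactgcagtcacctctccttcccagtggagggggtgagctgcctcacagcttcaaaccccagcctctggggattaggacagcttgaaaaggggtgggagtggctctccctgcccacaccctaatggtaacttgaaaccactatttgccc
Ifitm2: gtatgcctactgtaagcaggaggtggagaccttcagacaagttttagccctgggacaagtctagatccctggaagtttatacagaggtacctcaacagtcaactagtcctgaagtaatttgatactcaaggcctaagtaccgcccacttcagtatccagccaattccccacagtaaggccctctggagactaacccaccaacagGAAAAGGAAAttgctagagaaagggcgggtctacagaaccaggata
Ifitm3: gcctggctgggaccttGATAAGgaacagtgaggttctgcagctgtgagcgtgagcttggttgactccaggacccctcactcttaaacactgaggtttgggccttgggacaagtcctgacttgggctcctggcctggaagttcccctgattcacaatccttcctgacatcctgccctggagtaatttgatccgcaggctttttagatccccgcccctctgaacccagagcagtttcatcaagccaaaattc
Ifitm6: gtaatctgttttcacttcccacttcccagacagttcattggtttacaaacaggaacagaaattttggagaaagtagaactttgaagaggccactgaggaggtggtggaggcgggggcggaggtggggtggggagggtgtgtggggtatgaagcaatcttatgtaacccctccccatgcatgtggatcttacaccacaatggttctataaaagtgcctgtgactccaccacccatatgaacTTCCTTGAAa

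The windows searched ran from these 250 bases to 50 bases past the start. The core of the interferon-stimulated response element (ISRE), GAAA, any 2 bases and GAAA again on either strand, is bound by interferon regulatory factors. It occurred in 3.44% of all 32851 promoter windows of the same length, and at 2 or more places in 0.225% of them. Ifitm3 had 2 matches, which began at bases 3 and 20 of the transcript as RefSeq starts it, and Ifitm2 had 1, which began 46 bases before its start. None was found in the windows of Ifitm1 and Ifitm6. In GENCODE M21 the starts lie at -26 bases from these for Ifitm2 and Ifitm3, at -855 for Ifitm1 and at -1032 for Ifitm6, so the windows depend on the annotated start. The 30 bases that hold these matches are shown next, with the motif letters in capitals (Ifitm2 at chr7:140955979-140956008 and Ifitm3 at chr7:141010714-141010743, both on the minus strand).
Ifitm2: gGAAAAGGAAAttgctagagaaagggcggg
Ifitm3: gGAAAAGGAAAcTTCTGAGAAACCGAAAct

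Both stretches hold the letters GAAAAGGAAA, and that of Ifitm3 goes on to GAAACCGAAA. The interferon-gamma activated site TTCNNNGAA, which reads the same on both strands, occurred in 8.30% of windows. It matched Ifitm3 from base 14 of the transcript, where it overlaps the second ISRE core, and Ifitm6 from 10 bases before its start. The GATA factor motif GATAAG, on either strand, occurred in 7.44% of windows and matched Ifitm3 alone of the members, at position -234 from its start. The motifs ACAAGATA and GAAGATGAG, which belong to sites of the zinc finger domains of EVI1, occurred in 0.575% and 0.399% of windows and in none of the members' windows. These matches describe the letters in these windows only.

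Ifitm3, the member known to act in late endosomes against influenza virus, had the highest level of the family in every library of the stem cell gate other than the library labelled WT HSC replicate 3. Replicates 1 to 3 of Evi1 HSC gave 353, 518 and 361 TPM, against 241, 246 and 16.3 TPM for those labelled WT HSC. For those labelled WT KL it came to 269, 9.19 and 15.5 TPM. The Evi1 HSC libraries were the 3 highest of the 9, with replicate 2 above the other two, and did not overlap with those of either WT group. Libraries fell into a high set above 240 TPM and a low set of 3 under 17 TPM (WT KL replicates 2 and 3 and the one labelled WT HSC 3), and the 2 libraries that went against their labels lay in the set opposite to their label.

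Ifitm1, which sits mainly at the cell surface, gave 120.3, 149 and 134 TPM over the Evi1 HSC replicates, against 136, 132 and 9.50 TPM over those labelled WT HSC. Replicates labelled WT KL gave 135, 2.05 and 0.692 TPM. Evi1 HSC overlapped with WT HSC replicates 1 and 2 and with the library labelled WT KL replicate 1. The library labelled WT HSC replicate 3 was far under these, yet above WT KL replicates 2 and 3.

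Ifitm2, an endosomal member, measured 151, 164 and 137 TPM across Evi1 HSC, against 114, 119.6 and 43.4 TPM across the replicates labelled WT HSC. Across those labelled WT KL it measured 123, 41.8 and 32.4 TPM. The 3 Evi1 HSC libraries were again the highest. The low libraries still held over 30 TPM, so the gap between the sets was narrower than for Ifitm1 and Ifitm3.

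Ifitm6, known in the mouse from neutrophils and monocytes, was near the bottom of the scale. It was listed at 0 in all 3 Evi1 HSC libraries, while those labelled WT HSC gave 0, 0.255 and 1.32 TPM. Those labelled WT KL gave 0.776, 0.0983 and 0.512 TPM. It reached 1 TPM in 1 library and was not tested. A 0 here means not detected at a depth that the files do not give. Of 5 late neutrophil markers, S100a8 and S100a9 were listed at 0 in Evi1 HSC and in WT HSC replicates 1 and 2. The replicate labelled WT HSC 3, which had the highest Ifitm6, held 153 TPM of S100a8, and WT KL replicates 2 and 3 had 492 and 110.1 TPM of it. The library labelled WT KL replicate 1, the next highest in Ifitm6, was at 0 for S100a8 and S100a9. WT KL replicate 2, with the most S100a8, had 0.0983 TPM of Ifitm6, so Ifitm6 did not follow S100a8 across the libraries. The other 3, Ngp, Camp and Ltf, did not exceed 3.10 TPM in any library.

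**Figure D1:**
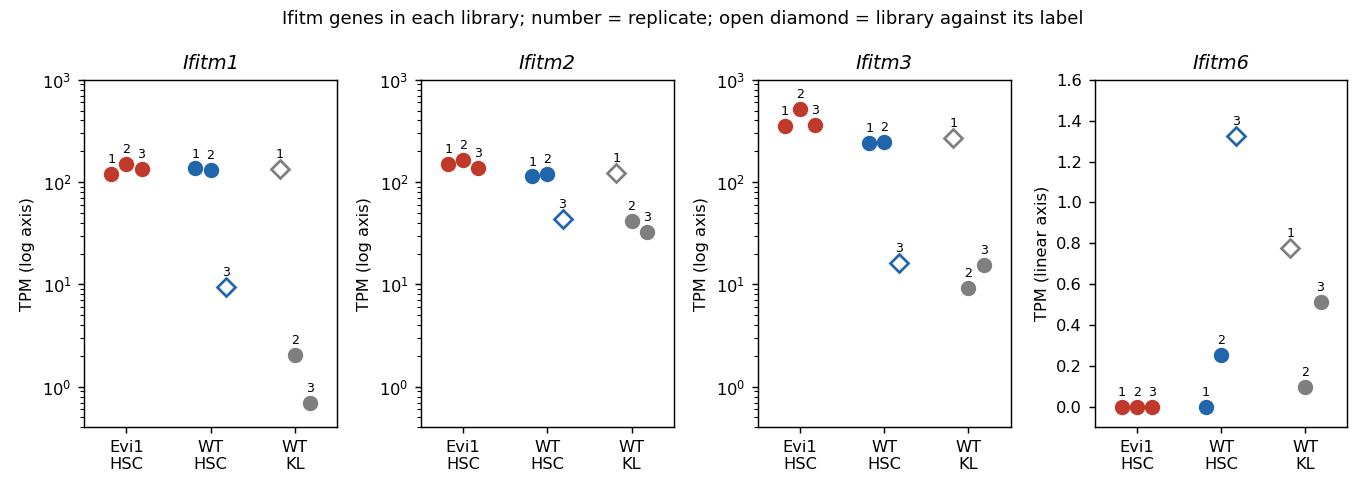
TPM of each Ifitm member (log axis, linear for Ifitm6) in the 3 libraries of each group, with the replicate number above each point and open diamonds for the 2 libraries against their labels. Ifitm3 in Evi1 HSC, at 353 to 518 TPM, lies above every other library, while Ifitm1 in Evi1 HSC overlaps with WT HSC replicates 1 and 2.

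A total of 19461 genes, each reaching 1 TPM in 3 libraries or more, were tested by limma on log2(TPM + 1) with adjustment over all of them, and called at an adjusted p under 0.05. In such bulk libraries, fewer cells that express a gene and less RNA per cell cannot be told apart. Differences are in mean log2(TPM + 1), a scale on which changes of low genes come out too small. The first comparison asks what stem cells with ectopic Evi1 express beside stem cells of the same surface phenotype. Mecom itself was not called in it, at a log2 difference of 0.54 over 7 libraries (SE 0.20, adjusted p = 0.532). The GFP reporter row Egfp was called higher in Evi1 HSC, by 4.36 (SE 0.18, adjusted p = 0.00098). Over 9 libraries, 0 of the 3 tested members were called between Evi1 HSC and WT HSC, and 0 at an unadjusted p under 0.05, where 0.00514% of all tested genes were called and 4.66% had such a p. Over 7 libraries it was again 0, where 0.206% were called in either direction, 0.0565% higher and 0.149% lower. Of the 3 members 2 had an unadjusted p under 0.05 there, as had 8.40% of all tested genes.

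Over 7 libraries Ifitm3 averaged 411 ± 92.8 TPM in Evi1 HSC (SD, n = 3) and 244 ± 3.92 TPM in WT HSC (SD, n = 2), a ratio of 1.69. The log2 difference was 0.73 (SE 0.24, adjusted p = 0.49), higher in 3 of 3 Evi1 HSC libraries. Without Evi1 HSC replicate 2, its highest library, it was 0.55 (SE 0.23, adjusted p = 0.595). Ifitm2 averaged 151 ± 13.6 TPM in Evi1 HSC and 117 ± 4.24 TPM in WT HSC, a log2 difference of 0.36 (SE 0.14, adjusted p = 0.561). Ifitm1 averaged 134 ± 14.4 TPM in Evi1 HSC and 134 ± 3.09 TPM in WT HSC, with a log2 difference of 0.00 (SE 0.25, adjusted p = 1.0). Over 9 libraries as labelled the log2 differences of Ifitm3, Ifitm2 and Ifitm1 were 2.0 (SE 1.34), 0.83 (SE 0.52) and 1.23 (SE 1.61), with adjusted p of 0.791, 0.791 and 0.818. None of the 3 exceeded 2 SE. Ifitm3 and Ifitm2 were above every WT HSC library in each Evi1 HSC library, as were 9.19% of all tested genes over 9 libraries and 11.8% over 7.

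Setting WT HSC against WT KL compares stem cells with committed progenitors of the same genotype. Over 9 libraries 0 of the 3 tested members were called, and 0 at an unadjusted p under 0.05, where 0.00514% of tested genes were called and 1.45% had such a p. Over 7 libraries all 3 were higher in WT HSC, where 26.7% of tested genes were called higher, 10.8% lower and 37.5% in either direction. Every WT HSC library was above every WT KL library for all 3, as for 47.4% of tested genes, while over 9 libraries 0 of the 3 were so separated, against 1.42%. The libraries left out were picked by expression, so the p-values and separation over 7 do not measure how the gates differ as labelled. The low libraries also stood apart in the number of genes that reached 1 TPM, which was 18258 to 18806 in the 6 libraries high in Ifitm3 and 15422 to 15819 in the 3 low in it. The part of this in the result was not tested. Ifitm1 averaged 134 ± 3.09 TPM in WT HSC and 1.37 ± 0.957 TPM in WT KL (SD, n = 2 each), a log2 difference of 5.89 (SE 0.27, adjusted p = 4.67e-05). Ifitm3 averaged 244 ± 3.92 TPM in WT HSC and 12.4 ± 4.48 TPM in WT KL, a log2 difference of 4.24 (SE 0.27, adjusted p = 0.000127). Ifitm2 averaged 117 ± 4.24 TPM in WT HSC and 37.1 ± 6.65 TPM in WT KL, a log2 difference of 1.63 (SE 0.16, adjusted p = 0.000503). As ratios of mean TPM the 3 genes were 97.8, 19.7 and 3.14 times higher in WT HSC. That of Ifitm1 rests on low WT KL values, being 193.5 without WT KL replicate 2 and 65.5 when replicate 3 is left out instead. Over 9 libraries their log2 differences were 2.70 (SE 1.61), 1.5 (SE 1.34) and 0.60 (SE 0.52), each with an adjusted p of 0.963.

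Evi1 HSC against WT KL shares the WT KL libraries with that comparison. Over 9 libraries 0 of the 3 were called, where 0.0103% of tested genes were. All 3 had an unadjusted p under 0.05, as had 15.2% of tested genes. Over 7 libraries all 3 were higher in Evi1 HSC, where 31.3% of tested genes were called higher, 14.3% lower and 45.5% in either direction. The groups did not overlap for any of the 3 over 7 libraries, as for 43.6% of tested genes, nor for Ifitm2 and Ifitm3 over 9, against 13.5%. The log2 differences were 5.89 for Ifitm1 (SE 0.25, adjusted p = 1.96e-05), 4.96 for Ifitm3 (SE 0.24, adjusted p = 3.48e-05) and 2.0 for Ifitm2 (SE 0.14, adjusted p = 1e-04). Over 9 libraries they were 3.93, 3.50 and 1.43 (SE 1.61, 1.34 and 0.52), each with an adjusted p of 0.31.

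Over all tested genes the median log2 difference over 7 libraries was 0.26 in WT HSC against WT KL and 0.28 in Evi1 HSC against WT KL. Quantile normalization moved these medians to -0.10 and -0.08. It also moved the calls in WT HSC against WT KL to 2999 higher and 3155 lower, from 5203 higher and 2104 lower in the unscaled fit. In Evi1 HSC against WT KL they moved to 3663 higher and 4014 lower, from 6087 and 2776. The 3 members stayed called and higher under it, by 5.53, 4.14 and 1.75 for Ifitm1, Ifitm3 and Ifitm2 in WT HSC against WT KL.

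**Figure D2:**
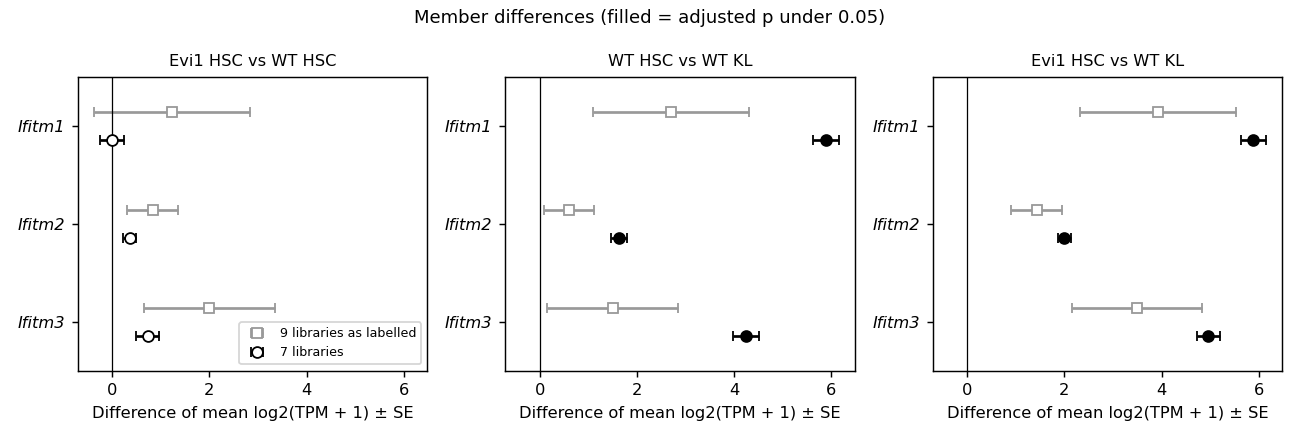
Difference of mean log2(TPM + 1) with its SE for the 3 tested members in each comparison, over 9 libraries as labelled (grey squares) and over 7 libraries (black circles). Filled symbols, at an adjusted p under 0.05, occur in both comparisons with WT KL over 7 libraries and nowhere else.

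Endothelial markers as a sum were lower in WT KL than in the other groups over 7 libraries, as were Ifitm1, Ifitm2 and Ifitm3. Summed over Cdh5, Pecam1, Kdr, Lyve1, Stab2 and Tek, 6 of 6 with a row, the level was between 112 and 141 TPM in Evi1 HSC and 74.3 to 132 TPM in WT HSC replicates 1 and 2. The sum came to between 3.54 and 4.72 TPM in WT KL replicates 2 and 3, where Lyve1 was listed at 0. Single markers did not all follow the members. Lyve1 and Stab2 were at 0.393 and 0.175 TPM in WT HSC replicate 1 but 8.58 and 8.26 TPM in replicate 2. All of the endothelial markers but Pecam1 were under 1 TPM in every library low in Ifitm3. Those passed the filter only through the libraries where they were high. Stem cells also use several of the endothelial markers, and their part in the result was not tested. Monocyte and macrophage markers (7 genes), whose cells can express Ifitm genes, summed to 2.45 to 3.91 TPM in Evi1 HSC and to 1.75 to 2.82 TPM in WT HSC replicates 1 and 2. They summed to 24.9 to 42.0 TPM in WT KL replicates 2 and 3, opposite to Ifitm1, Ifitm2 and Ifitm3. There the sum came mostly from Csf1r, Ly6c2 and F13a1. The macrophage genes C1qa, C1qb and Vsig4 did not reach 1 TPM in any library. C1qb averaged 0.586 TPM in WT HSC and 0.241 TPM in WT KL over 7 libraries, so the sum does not describe macrophages. Hepatocyte markers (4 genes) summed to 0.658 to 5.92 TPM in Evi1 HSC, 1.09 to 2.31 TPM in WT HSC replicates 1 and 2 and 0.239 to 1.11 TPM in WT KL replicates 2 and 3.

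The make-up of the family's message differed between the gates over 7 libraries, a measure within each library that rescaling a library does not change. The 4 genes summed to 624, 831 and 632 TPM in Evi1 HSC, to 491 and 498 TPM in WT HSC replicates 1 and 2, and to 53.2 and 49.2 TPM in WT KL replicates 2 and 3. The libraries labelled WT HSC replicate 3 and WT KL replicate 1 held 70.6 and 527 TPM. In them Ifitm3 made up 23.2 and 51.0% of the sum, Ifitm2 61.5 and 23.3%, and Ifitm1 13.5 and 25.6%. As labelled, the gates therefore did not separate. Ifitm3 made up 56.6 to 62.3% of the sum in Evi1 HSC and 49.1 and 49.5% in WT HSC replicates 1 and 2. It made up 17.3 and 31.6% in WT KL replicates 2 and 3, where Ifitm2 took 78.7 and 66.0%. Ifitm1 made up 18 to 21.2% in Evi1 HSC, 27.7 and 26.5% in WT HSC replicates 1 and 2, and 3.8 and 1.4% in WT KL replicates 2 and 3.

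Ifitm3 stood above Ifitm1 by a wider margin in Evi1 HSC than in WT HSC. The ratio of Ifitm3 to Ifitm1 was 2.94, 3.47 and 2.69 in Evi1 HSC and 1.77 and 1.87 in WT HSC replicates 1 and 2. It was 1.72 in the library labelled WT HSC replicate 3, which went against its label. Among the libraries labelled WT KL it came to 1.995, 4.50 and 22.4. This ratio was singled out after its values were seen and was not tested.

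**Figure D3:**
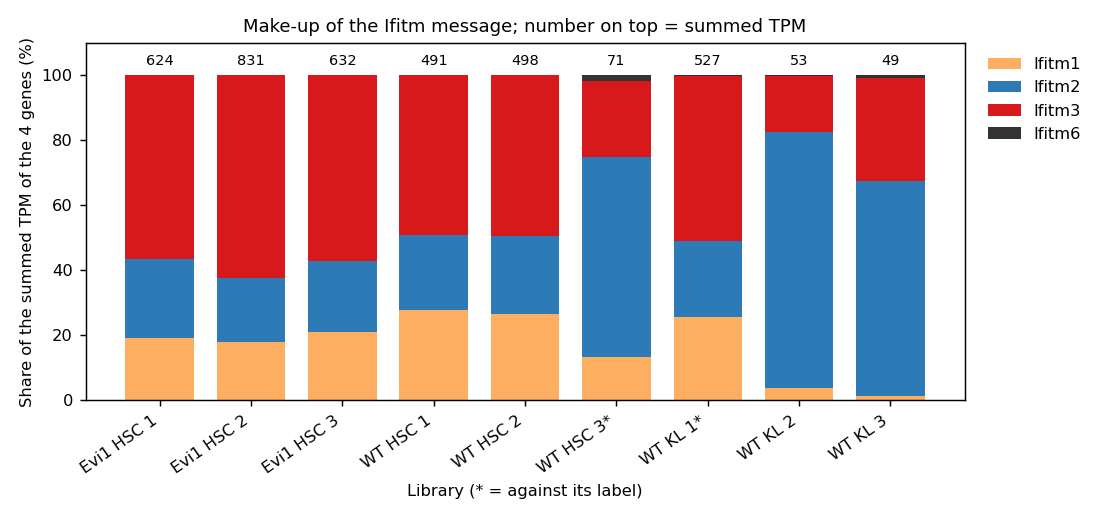
Share of the summed TPM of the 4 genes (%) taken by each member in every library, with the summed TPM above each bar and asterisks on the 2 libraries against their labels. Ifitm3 takes the largest share in Evi1 HSC and in WT HSC replicates 1 and 2, and Ifitm2 in WT KL replicates 2 and 3.

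How far the members' reads can be told apart differs by gene. Between coding sequences, Ifitm2 and Ifitm3 shared 80.9% of aligned bases, and Ifitm1 shared 82.1% with each of Ifitm2 and Ifitm3. Ifitm6 shared 63.2 to 69.0% with the other 3. Of the stretches of 50 bases in GENCODE transcripts, Ifitm1 had 5.02% in common with other genes (Gm7676 and Ifitm3), Ifitm3 had 10% (Gm7676, Ifitm2 and others) and Ifitm6 had 0. Of stretches of 100 bases these 3 had 0, and the read length is not known here. Ifitm2 had 48.5% of the shorter and 34.9% of the longer stretches in common with other genes, mostly with Gm45717, a coding gene model that shares 268 of 655 exonic bases with it. Gm45717 was at 0.713 to 0.809 times the TPM of Ifitm2 in all 9 libraries, and its log2 difference in WT HSC against WT KL was 1.52 (SE 0.16, adjusted p = 0.00072). The level of Ifitm2 is therefore less certain than that of the others, since the authors' counting could split its reads with Gm45717.

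Some flanking genes also differed in WT HSC against WT KL over 7 libraries, but by less than Ifitm1 and Ifitm3. Of the 5 coding genes on either side of the cluster, 6 of 10 were tested. Over 7 libraries 4 were higher and 1 lower in WT HSC against WT KL, where 26.7% and 10.8% of all tested genes were. The median log2 difference of the 6 was 1.14, against 0.26 over all tested genes. B4galnt4 and Pkp3, of those called higher, were under 1 TPM in every library low in Ifitm3. They passed the filter only through the libraries where they were high, so the count and median do not test the flanks. Sigirr, an inhibitory receptor of the interleukin-1 family that lies 89.8 kb from the Ifitm3 start, was higher by 2.49 (SE 0.30, adjusted p = 0.00123). B4galnt4, a glycosyltransferase gene 50.3 kb away, was higher by 2.13 (SE 0.24, adjusted p = 0.000924), a direction that the filter had built in. On the other side Pgghg was higher by 1.35 (SE 0.16, adjusted p = 0.0012), and Psmd13, a proteasome subunit gene, fell by 0.72 (adjusted p = 0.00893). In Evi1 HSC against WT HSC 0 of the 6 were called over 7 libraries, with adjusted p of 0.673 to 0.978. Over 9 libraries 0 of the 6 were called in any comparison.

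Within the cluster Ifitm5, known from bone-forming cells, ranged from 2.06 to 4.19 TPM over Evi1 HSC, against 2.78 and 2.77 TPM over WT HSC replicates 1 and 2. WT KL replicates 2 and 3 gave 0.373 and 0.924 TPM. Its log2 difference in WT HSC against WT KL was 1.21 (SE 0.32, adjusted p = 0.0235). It shares 227 of 765 exonic bases with Gm45717. Away from the cluster, Ifitm7 on chromosome 16 ranged from 3.88 to 4.37 TPM over Evi1 HSC. WT HSC replicates 1 and 2 gave 6.02 and 5.59 TPM, and WT KL replicates 2 and 3 gave 0.220 and 0.356 TPM. Its coding sequence shared 89.3% of aligned bases with Ifitm1, and its log2 difference in WT HSC against WT KL was 2.40 (SE 0.19, adjusted p = 0.000252). Ifitm10 did not exceed 0.0230 TPM in any library. Ifitm5 and Ifitm7 were under 1 TPM in every library low in Ifitm3. They passed the filter only through the libraries where they were high. A higher value against WT KL over 7 libraries was thus built in, and their adjusted p there do not test it. Over 9 libraries the adjusted p of Ifitm5 and Ifitm7 in this comparison was 0.963.

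**Figure D4:**
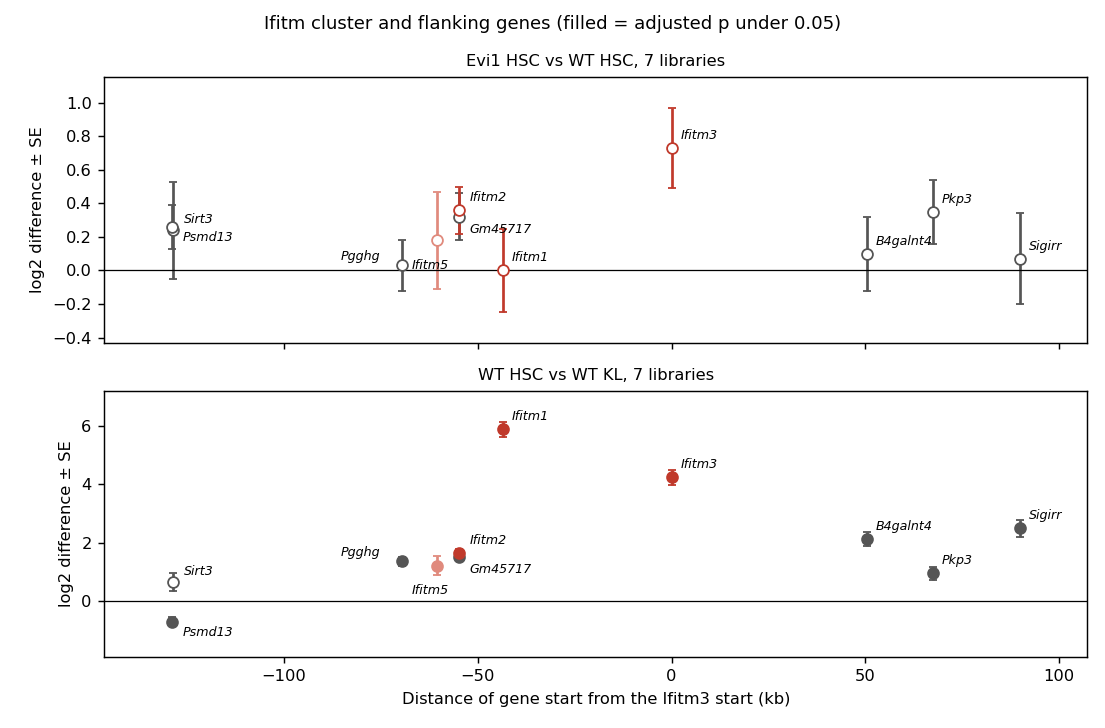
Difference of mean log2(TPM + 1) over 7 libraries, with its SE, for tested genes of the Ifitm cluster and its flanks by distance of their start from the Ifitm3 start (kb), with Evi1 HSC against WT HSC in the upper panel and WT HSC against WT KL in the lower. In WT HSC against WT KL, Ifitm1 and Ifitm3 lie at 5.89 and 4.24, above the flanking genes, the highest of which is Sigirr at 2.49.

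Interferon-stimulated genes as a list were set beside the members. Of 37 listed genes, 33 were tested. Over 7 libraries 22 were higher and 0 lower in WT HSC against WT KL, where 26.7% of all tested genes were called higher, with a median log2 difference of 2.07 against 0.26 over all. All 33 tested were higher in Evi1 HSC against WT KL, where 31.3% of all tested genes were, with a median of 2.83 against 0.28. Of the 33, 15 were under 1 TPM in all 3 libraries low in Ifitm3, Oasl2 and Rtp4 among them. These 15 passed the filter only through the libraries where they were high. A higher value against WT KL was thus built in for them over 7 libraries. The counts and medians against WT KL therefore do not test the list. In Evi1 HSC against WT HSC 0 were called, with a median of 0.86 against 0.00 over all tested genes. Over 9 libraries 0 of the 33 were called in any of the 3 comparisons, the medians being 1.47 in Evi1 HSC against WT HSC, 0.59 in WT HSC against WT KL and 2.09 in Evi1 HSC against WT KL. In both comparisons with WT KL the largest differences over 7 libraries were those of Oasl2, Rtp4 and Oas1a. Oasl2, of the oligoadenylate synthetase family, was higher by 4.59 (adjusted p = 0.00116) in WT HSC. Rtp4 was higher by 3.69 (adjusted p = 0.00423) and the oligoadenylate synthetase gene Oas1a by 3.29 (adjusted p = 0.00144). On this scale Ifitm1 at 5.89 stood past all 33 in WT HSC against WT KL, but the scale shrinks genes that are near 0 in WT KL. By ratio of mean TPM, 4 of the 33 (Oasl2, Rtp4, Oas2 and Rsad2) exceeded the 97.8 of Ifitm1, and another 2 were listed at 0 in WT KL replicates 2 and 3.

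The libraries of Evi1 HSC were not alike in these genes. Evi1 HSC replicate 2, the highest in Ifitm1, Ifitm2 and Ifitm3, was the highest of the 3 Evi1 HSC libraries in 27 of the 33 interferon-stimulated genes tested (81.8%), against 23.3% of all tested genes. Rtp4 gave 29.8, 90.3 and 20.1 TPM over Evi1 HSC replicates 1, 2 and 3, against 12.7 and 12.1 TPM over WT HSC replicates 1 and 2. Irf7, an interferon regulatory factor that interferon itself induces, gave 8.98, 37.6 and 11.4 TPM, against 2.71 and 7.64 TPM. Not every listed gene was above WT HSC replicates 1 and 2 in each Evi1 HSC library. Rsad2 gave 2.73, 16.5 and 8.43 TPM over Evi1 HSC, against 3.24 and 3.39 TPM. Mx2 gave 2.02, 18.2 and 5.81 TPM, against 2.47 and 2.25 TPM. For Rsad2 and Mx2, Evi1 HSC replicate 1 thus lay under WT HSC replicates 1 and 2.

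Of 18 genes for interferon receptors and signalling, 15 were tested. Over 7 libraries 9 were higher and 0 lower in WT HSC against WT KL, where 26.7% and 10.8% of all tested genes were, with a median of 1.03 against 0.26 over all. In Evi1 HSC against WT KL 12 were higher and 1 lower, where 31.3% and 14.3% of all tested genes were, with a median of 1.15 against 0.28. The lower one was Ifngr1, a chain of the interferon-gamma receptor, at -0.49 (SE 0.12, adjusted p = 0.0158). In Evi1 HSC against WT HSC 0 were called. The largest difference was that of Irf1, a transcription factor that binds the ISRE. Evi1 HSC gave 42.0, 32.5 and 29.9 TPM of it, WT HSC replicates 1 and 2 gave 28.6 and 29.2 TPM, and WT KL replicates 2 and 3 gave 2.17 and 0.968 TPM. In WT HSC against WT KL it was higher by 3.58 (SE 0.27, adjusted p = 0.000207). Usp18, which removes Isg15 and damps interferon signalling, was higher there by 1.82 (adjusted p = 0.00862). Being under 1 TPM in every library low in Ifitm3, Usp18 passed the filter only through the libraries where it was high. Irf2, another interferon regulatory factor, was higher by 1.63 (adjusted p = 0.000971). Over 9 libraries 0 of the 15 were called in any comparison.

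**Figure D5:**
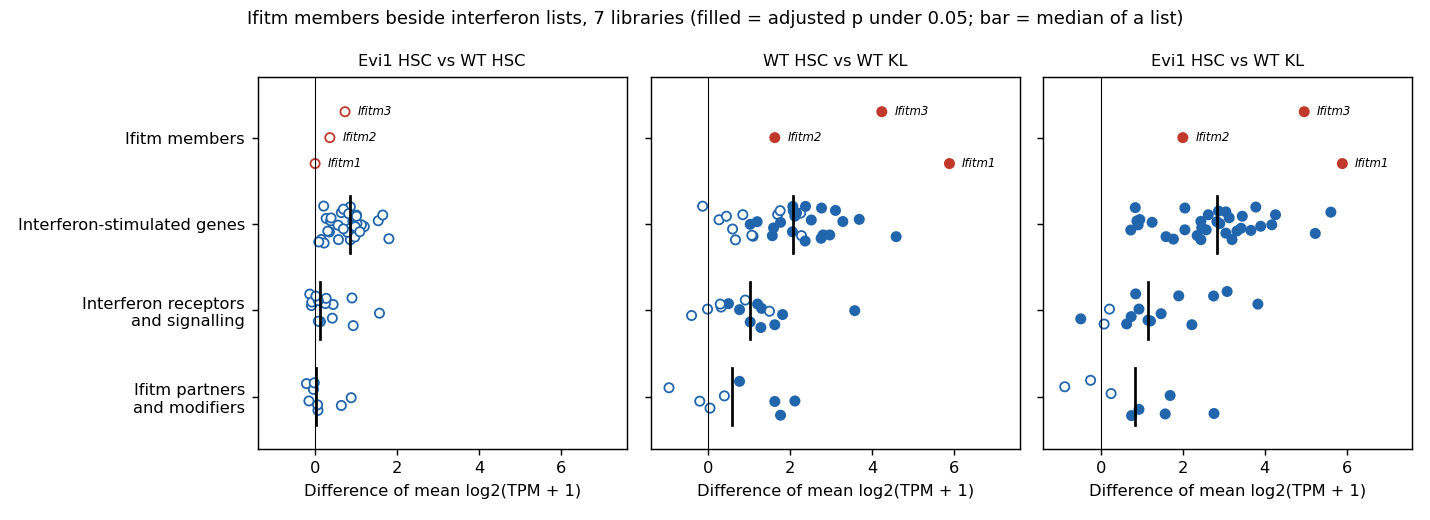
Difference of mean log2(TPM + 1) over 7 libraries for the 3 tested members (red) and for the tested genes of 3 lists (blue), filled at an adjusted p under 0.05, with a bar at each list's median. In WT HSC against WT KL, Ifitm1 at 5.89 lies past every interferon-stimulated gene on this scale, though 4 of them exceed it by ratio of mean TPM, and in Evi1 HSC against WT HSC no point is filled.

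Genes with the most similar patterns were sought by the root mean square difference between profiles of log2(TPM + 1), each centred on its own mean over the 9 libraries, among tested genes at a mean of 10 TPM or more, predicted and clone-named genes left out. This measure uses no group labels, and because the libraries fall into a high and a low set it mostly follows the size of that step. Nearest to Ifitm3 were Lgals3bp (0.17), Ifi203 (0.21), Chd3 (0.27), Gvin1 (0.28) and Gimap1 (0.32). Ifi203 is an interferon-inducible gene of the HIN-200 family and Gvin1 encodes a very large interferon-inducible GTPase. Nearest to Ifitm1 were Gimap1 (0.57), the imprinted H19 RNA (0.58), Gimap5 (0.58), Fstl1 (0.59) and the endothelial adhesion receptor gene Adgrl4 (0.60). Nearest to Ifitm2 were the scaffold gene Slc9a3r1 (0.09), vimentin (Vim, 0.11), the receptor kinase gene Grk2 (0.12), the phosphatase gene Ptpn6 (0.13) and Gimap9 (0.13). Between the members themselves the difference was 0.75 for Ifitm1 and Ifitm3, 1.32 for Ifitm2 and Ifitm3 and 1.71 for Ifitm1 and Ifitm2. These are fixed pairs, while the nearest genes were the closest of 6873 candidates, so the sizes cannot be set against each other.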

How the data were processed

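The authors deposited TPM values per gene, 1 table per library with none pooled, per the file headers. The table of WT HSC replicate 2 heads its values C_H3 instead. They were taken as TPM, since they total 56.9% of the TPM scale, beside 57.1 to 63.8% in the other 8. The submitters' processing notes name HISAT2, StringTie and the build mm10. No versions, annotation or strand setting were found (not given in the sources used here). As a share, a gene's TPM falls where abundant genes rise. Read depth cannot be had from TPM, so it is unknown, and neither counting intervals nor count models were used.

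Means of log2(TPM + 1) per group were compared by limma 3.58.1 (R 4.3.3), with a trend on mean expression and Benjamini-Hochberg adjustment over all 19461 genes that reached 1 TPM in 3 libraries or more. Calls needed an adjusted p under 0.05. The fit was tested on simulated data. Members and lists were chosen with earlier results of these data known. Named were the members, other Ifitm rows, cluster neighbours, the genes of each list with the largest called differences and the 5 nearest profiles per member. Promoters came from RefSeq GRCm38.p6 and gene positions from GENCODE M21, which held 55141 of the 55488 gene IDs. Alternatives changed the libraries, replicate block, pseudocount, filter, scaling and groups fitted.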

Additional observations from a re-analysis of the deposited data

How the results depend on the processing

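Leaving out the 2 libraries that went against their labels decided the comparisons with WT KL, where 0 members were called over 9 libraries and 3 over 7. They were left out for their expression, and no alternative over 7 libraries tests that choice. With 9 libraries the count of members called stayed at 0 in all 3 comparisons with a replicate block, a pseudocount of 0.1, no filter, rescaling to the listed genes, quantile normalization, the compared groups only, and without each replicate in turn (0 to 0). With 7 libraries these same alternatives gave 3 in both comparisons with WT KL, the range without each replicate being 3 to 3, and 0 in Evi1 HSC against WT HSC. Where 1 library was left in a WT group, it was assumed to vary like the others. Over these alternatives with 7 libraries the log2 difference in WT HSC against WT KL ran from 5.47 to 6.68 for Ifitm1, 3.89 to 4.58 for Ifitm3 and 1.46 to 1.81 for Ifitm2 (highest adjusted p = 0.0061). In Evi1 HSC against WT HSC that of Ifitm3 ran from 0.55 to 0.82 (adjusted p of 0.45 to 0.767) and that of Ifitm2 from 0.30 to 0.44 (0.493 to 0.84). That of Ifitm1, at 0.00 over 7 libraries, turned to -0.01 when rescaled, -0.05 with quantile normalization, -0.08 without Evi1 HSC replicate 2 and -0.02 without WT HSC replicate 2 (adjusted p of 0.966 to 0.996). With a replicate block over 7 libraries, Ifitm1, Ifitm3 and Ifitm2 were higher in WT HSC against WT KL by 5.80, 4.37 and 1.54 (adjusted p = 0.00272, 0.00434 and 0.00564), and the block changed no call of a member. It lowered the count of all genes called in that comparison from 7307 to 4947, and in Evi1 HSC against WT HSC from 40 to 0. No label says that a number marks a shared embryo or day. Deviations of same-numbered libraries correlated at -0.10 to -0.03 between Evi1 HSC and WT HSC, and at 0.62, -0.64 and 0.70 between WT HSC and WT KL, but these include the 2 libraries against their labels, so they do not show whether the numbers pair. The count of all genes called in Evi1 HSC against WT HSC over 7 libraries was 30 with a pseudocount of 0.1, 73 with no filter and 6 with the compared groups only. Ifitm6 could be tested only with no filter, at -0.51 in Evi1 HSC against WT HSC over 9 libraries (SE 0.31, adjusted p = 0.796) and -0.16 over 7 (SE 0.16, adjusted p = 0.839). The unknown read depth limits Ifitm6 and the low values of Ifitm1 most.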

Other observations

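Of 10 other genes whose proteins carry a CD225 domain, 6 did not reach 1 TPM in any library: Ifitm10, Prrt1, Tmem233, Trarg1, Syndig1 and Syndig1l. Trarg1 and Syndig1l were listed at 0 throughout. The other 4, Ifitm5, Ifitm7, Prrt2 and Tmem91, were tested. Of these, 3 (Ifitm5, Ifitm7 and Prrt2) passed the filter on low values only through the libraries where they were high, so no count or median of the 4 is given. Prrt2, a presynaptic membrane protein in neurons, ranged from 2.03 to 2.60 TPM over Evi1 HSC. WT HSC replicates 1 and 2 gave 2.18 and 2.47 TPM, and WT KL replicates 2 and 3 gave 0.475 and 0.700 TPM. It was higher in WT HSC than in WT KL by 1.07 (SE 0.21, adjusted p = 0.00768). With all 9 libraries 0 of the 4 were called in any comparison.

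Of 8 genes for partners and modifiers of Ifitm proteins, known mainly from human cells, 4 were higher in WT HSC than in WT KL over 7 libraries, where 26.7% of all tested genes were, with a median log2 difference of 0.59 against 0.26 over all. Cd9 and Cd81, tetraspanins of the cell surface, were higher by 2.12 (adjusted p = 0.000255) and 0.77 (adjusted p = 0.00244). Zdhhc20, an enzyme that palmitoylates IFITM3 in human cells, was higher by 1.77 (adjusted p = 0.00314), and Setd7, a methyltransferase that acts on it, by 1.63 (adjusted p = 0.00304). Fyn, a kinase that phosphorylates it, gave 20.9, 24.0 and 25.5 TPM over Evi1 HSC, against 11.6 and 13 TPM over WT HSC replicates 1 and 2 (log2 difference 0.88, SE 0.15, adjusted p = 0.119). The replicate labelled WT KL 1 gave 24.7 TPM. Nedd4, Vapa and Zmpste24 had adjusted p of 0.0655 to 0.303 in WT HSC against WT KL. With all 9 libraries 0 of the 8 were called.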
